A study of Mus musculus with 2 samples.

Results

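The 10 genes described here are immediate early genes, chosen by name as members of a well-known class and looked up by symbol among 21883 protein-coding genes of the GRCm38 gene table. All 10 were found: Fos, Fosb, Jun, Junb, Atf3, Egr1, Nr4a1, Npas4, Arc and Ier2. Chromatin accessibility at these genes was measured by ATAC-seq: Tn5 transposase cuts open DNA and leaves adapters there, so more insertions in a stretch mean more accessible DNA. There was 1 library from the flash-frozen neural retina of an adult Gabra3 knockout mouse and 1 from an adult wild-type littermate, both C57BL/6, each made from 20000 nuclei and read as 75 bp single ends. Gabra3 encodes a subunit (alpha 3) of GABA-A receptors, chloride channels of inhibitory synapses, and the series asks how retinal accessibility differs without it. The labels do not state the kind of knockout allele, the sex of the animals, their light history or the hour of collection.

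The knockout library gave 7646373 insertions and the wild-type library 7635799, and the share of autosomal insertions in open regions was 18.8% and 19.6%. The Gabra3 gene body held 121 knockout and 126 wild-type insertions, so the body as a whole was not missing from the knockout library. Since the kind of allele is not stated, these counts cannot check the label of the knockout. All 8 rod markers had an open region in or near the gene, with a median of 30.7 insertions per kb in knockout and 34.1 in wild type. By the same measure an open region was present for 7 of 7 cone, 5 of 5 Muller glia, 5 of 6 bipolar, 5 of 6 amacrine, 3 of 4 horizontal and 3 of 6 retinal ganglion cell markers. Among other cell types it was present for 3 of 4 lens, 3 of 5 pigment epithelium, 3 of 5 microglial and 1 of 4 endothelial markers and for 2 of 4 markers of liver, heart, pancreas and gut. At the stronger gene end, an open region was present for 6 of 8 rod, 4 of 7 cone, 4 of 6 bipolar, 3 of 5 Muller glia and 3 of 6 ganglion cell markers, against 2 of 4 lens, 1 of 5 pigment epithelium, 1 of 5 microglial and 0 of 4 endothelial markers. There it was present for 2 of 6 amacrine and 2 of 4 horizontal cell markers and for 0 of 4 markers of the other tissues. Of all 21883 genes, 31.3% had no open region in or near the gene, and 50.6% had one at the stronger end. Several marker counts lie near these shares, so the counts alone do not show which cell types were present. Lens markers held 227 knockout and 228 wild-type insertions at their gene ends, and pigment epithelium markers 132 and 129. The part of other cells in the results below was not tested. With 1 library per genotype there is no test and no replicate check, and every ratio compares these libraries only. Intervals are exact 95% intervals and cover counting error only. In bulk tissue, a change in the share of a cell type and a change in accessibility per cell cannot be told apart.

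Immediate early genes are transcribed within minutes of a stimulus, before any new protein is made, from promoters that already hold transcription factors such as SRF and CREB. Calcium entry and growth factor signals reach these factors through kinases, and in neurons the genes are widely used as marks of recent activity, in the retina also after light and injury. Most encode transcription factors that drive a later wave of genes: Fos and Jun proteins pair to form AP-1, Egr1 is a zinc finger factor, Nr4a1 an orphan nuclear receptor and Npas4 a basic helix-loop-helix factor with PAS domains. Arc encodes a synaptic protein that takes part in the uptake of AMPA receptors. Accessibility is not transcription, and an open promoter of this class can be silent.

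The reference promoter table held 7 of the 10 genes, and 6 of these 7 had the short core of the cAMP response element, the sequence bound by CREB, in the window from 250 bases before to 50 bases after the annotated start. This core, TGACG, searched on both strands, occurred in 23.6% of 21262 protein-coding promoter windows of the same length. Nr4a1 had 4 matches, Fos and Npas4 had 2 each, Fosb, Junb and Atf3 had 1 each, and Jun had none. None of the 7 windows held the full element TGACGTCA, the CArG box bound by SRF, the AP-1 site TGANTCA, the NR4A site AAAGGTCA or the E-box CACGTG. These occurred in 2.234%, 1.52%, 6.99%, 1.30% and 7.84% of all windows, in that order. The GC box GGGCGG was in 6 of the 7 windows and in 46.2% of all windows. The EGR site GCGNGGGCG was in those of Fosb and Nr4a1 and in 7.52% of all, and at both genes it overlapped a GC box. The ETS motif CCGGAA was in that of Nr4a1 and in 18.7% of all. The TATA box TATAAA was found in Fos and Junb and in 12.6% of all windows, and in Junb it began at the annotated start itself. A match is a description of the letters and no evidence of binding. Only exact words within these windows were searched. Sites further out, sites with other letters and sites of Egr1, Arc and Ier2 would be missed. The median GC content of the 7 windows was 65.3%, and that of all windows was 56.3%.

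The stretches of 250 bases that end just before the annotated start are shown for 5 genes, from the RefSeq table of GRCm38.p6, to set the 3 promoters with most cores beside Atf3 and Jun, which had the most insertions and 1 core or none. Capitals mark the cores on either strand and, in Fos, the TATA box.
Fos (chr12:85473640-85473889, plus strand): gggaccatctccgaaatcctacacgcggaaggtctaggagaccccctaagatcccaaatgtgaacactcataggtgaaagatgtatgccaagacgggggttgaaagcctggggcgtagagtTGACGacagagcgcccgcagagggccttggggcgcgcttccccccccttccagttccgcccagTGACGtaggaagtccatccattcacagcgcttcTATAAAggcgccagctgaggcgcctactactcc
Nr4a1 (chr15:101266596-101266845, plus strand): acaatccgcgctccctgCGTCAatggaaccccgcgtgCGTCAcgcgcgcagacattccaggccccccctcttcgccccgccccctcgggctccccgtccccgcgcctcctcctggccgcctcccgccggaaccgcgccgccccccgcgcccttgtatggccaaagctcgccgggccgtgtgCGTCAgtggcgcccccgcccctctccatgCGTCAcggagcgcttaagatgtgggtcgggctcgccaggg
Npas4 (chr19:4989972-4990221, minus strand): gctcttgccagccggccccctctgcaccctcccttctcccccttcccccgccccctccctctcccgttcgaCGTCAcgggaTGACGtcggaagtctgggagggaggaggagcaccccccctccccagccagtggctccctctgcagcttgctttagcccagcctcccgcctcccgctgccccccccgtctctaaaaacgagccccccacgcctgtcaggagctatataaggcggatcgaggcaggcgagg
Atf3 (chr1:191183334-191183583, minus strand): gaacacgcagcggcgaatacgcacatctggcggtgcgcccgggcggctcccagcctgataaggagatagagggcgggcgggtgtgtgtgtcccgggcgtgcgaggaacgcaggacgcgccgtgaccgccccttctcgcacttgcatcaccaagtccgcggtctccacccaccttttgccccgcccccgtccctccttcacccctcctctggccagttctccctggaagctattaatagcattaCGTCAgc
Jun (chr4:95052223-95052472, minus strand): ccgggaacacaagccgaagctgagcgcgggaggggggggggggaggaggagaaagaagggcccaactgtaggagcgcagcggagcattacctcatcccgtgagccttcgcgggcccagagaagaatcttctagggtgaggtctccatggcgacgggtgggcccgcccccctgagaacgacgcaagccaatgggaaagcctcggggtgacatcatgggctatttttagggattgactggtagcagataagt

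Counting back from -1 at the base before the start, the cores of Fos began at -129 and -66 and its TATA box at -33, and those of Npas4 began at -179 and -169. In Nr4a1 they began at -233, -213, -69 and -40, and in Atf3 the single one began at -7. Within the printed stretch, Fos held 42 knockout and 37 wild-type insertions, and Nr4a1 held 39 and 36. Npas4 held 13 knockout and 19 wild-type insertions, Atf3 71 and 58, and Jun 76 and 92. All 5 intervals of these ratios included 0, so a difference at the letters shown was not detectable at this depth.

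The genes differed far more from each other than between genotypes at their starts. A window of 500 bp either side of the start has the same length for every gene, so its insertions compare directly between genes. The start was the annotated one for the 7 genes of the promoter table and the gene end with more insertions for Egr1, Arc and Ier2, for which the tables used here gave no strand. Atf3 and Jun had the most, with 182 and 175 insertions in knockout and 176 and 185 in wild type. Egr1 and Fos followed, then Ier2, Junb, Nr4a1 and Fosb in the same order in both libraries. Arc and Npas4 came last, with 53 and 34 in knockout and 32 and 44 in wild type, and swapped places. In each library all 9 pairs of neighbours in this order had overlapping counting intervals, so the order of neighbours is not firm. Some genes further apart overlapped too, such as Fos (91.3 to 133.7) and Junb (63.4 to 99.6) in knockout. The intervals of Atf3 and Jun lay above those of Arc and Npas4 in both libraries.

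**Figure D1:**
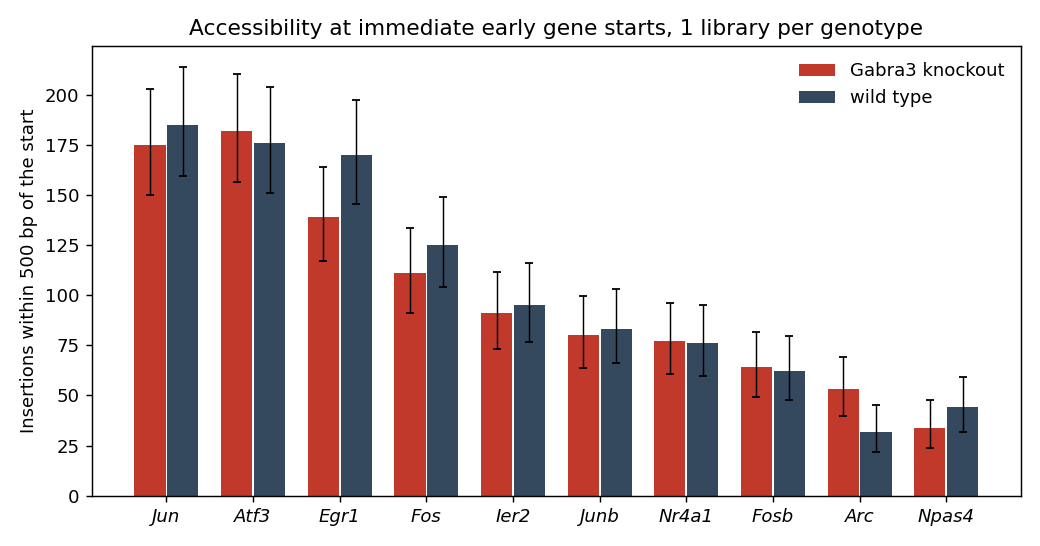
Insertions within 500 bp of the start of each immediate early gene in the Gabra3 knockout library (red) and the wild-type library (dark blue), 1 library each, genes in falling order of the sum. Error bars are exact 95% Poisson intervals of the count. Atf3 and Jun stand at 175 to 185 in both libraries and Npas4 at 34 and 44, and the knockout and wild-type bars lie furthest apart in proportion at Arc, with 53 and 32.

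Set against the stronger gene end of all 21883 protein-coding genes, these starts ranged from middling to strong. The median of all genes was 13 insertions in each library. The start of Atf3 would rank 845 among them in the knockout library and 1078 in wild type, and that of Jun 976 and 881. Egr1 exceeded 90.8% and 94.3% of genes and Fos 84.6% and 87.2%. Arc exceeded 66.9% of genes in the knockout library and 59.7% in wild type, and Npas4 60.9% and 63.6%. An open region overlapped the window at the annotated or stronger start of all 10 genes. At the stronger gene end it did so for 9 of the 10, against 50.6% of all genes, since both gene ends of Npas4 lie away from its annotated start.

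Npas4 and Nr4a1 needed the annotated start, because their gene models reach past it. The model of Npas4 (chromosome 19, 4984353 to 5003439) held 7 knockout and 3 wild-type insertions at its stronger end, but 34 and 44 at the annotated start. The model of Nr4a1 (chromosome 15, 101253902 to 101274795) held 36 and 41 at its lower end and 77 and 76 at the annotated start. For Fos, Jun, Junb and Atf3 the annotated start coincided with the stronger end, and at Fosb it lay 73 bp away. For Egr1, Arc and Ier2 the stronger end was itself taken as the start, so the 2 could not be compared.

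The 10 starts together held nearly equal numbers of insertions in both libraries. There were 1006 knockout and 1048 wild-type insertions, which as log2 of knockout over wild type came to 0.00, with an interval from -0.13 to 0.13, scaled to autosomal insertions in open regions. The median of the 10 ratios was 0.00, with 5 genes above 0 and 5 below. Over the 7506 gene ends with at least 100 insertions the median was 0.02. Counted at the stronger gene end, 7 genes reached 100 insertions, and 0 of them were 2-fold apart, as were 0% of the 7506. At 1.5-fold 0 of the 7 were higher, against 0.52% of the 7506, and 0 were lower, against 0.226%. These counts do not set the 7 genes apart from the background.

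Among the AP-1 genes no start stood apart between the libraries. Fos (chromosome 12, 85473890 to 85477274), whose protein pairs with Jun proteins, had 111 knockout and 125 wild-type insertions, a log2 ratio of -0.11 (-0.49 to 0.27). Fosb (chromosome 7, 19302696 to 19310118), its relative with a long-lived truncated form, had 64 and 62, a log2 ratio of 0.10 (-0.42 to 0.63). Jun (chromosome 4, 95049036 to 95052222) had 175 and 185, a log2 ratio of -0.02 (-0.33 to 0.28). The Jun window also covers the end of the long noncoding RNA Junos, 94 bp away, and insertions there cannot be assigned to either gene. Junb (chromosome 8, 84976909 to 84978748), a Jun relative and weaker activator, had 80 and 83 (0.01, -0.46 to 0.47). Atf3 (chromosome 1, 191170296 to 191183333), a stress-induced partner of Jun proteins and a mark of injured neurons, had 182 and 176 (0.11, -0.20 to 0.41). At each of these 5 starts the counts of both libraries lay within each other's Poisson intervals.

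The transcription factors outside AP-1 also gave ratios whose intervals included 0. Egr1 (chromosome 18, 34861207 to 34864956) had 139 knockout and 170 wild-type insertions, a log2 ratio of -0.23 (-0.57 to 0.10). Nr4a1 had 77 and 76, a log2 ratio of 0.08 (-0.40 to 0.55). Npas4, which in cortical neurons responds to calcium entry and acts on inhibitory synapses, had 34 and 44, a log2 ratio of -0.31 (-1.003 to 0.37). With so few insertions, the Npas4 interval reaches from 2-fold lower to less than 1.5-fold higher. Ier2 (chromosome 8, 84661331 to 84662852), a small nuclear protein, had 91 and 95 (0.00, -0.43 to 0.43).

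Arc was the only one of the 10 whose interval at the start lay off 0. Its window held 53 knockout and 32 wild-type insertions, a log2 ratio of 0.78 (0.13 to 1.47) over chromosome 15, around position 74672570. With 85 insertions in all it missed the minimum of 100. With a minimum of 50 insertions, 9 genes were measured at the stronger end and Arc was the 1 that was 1.5-fold higher, against 1.2% of 9307 gene ends. None of the 9 was 1.5-fold lower, against 1.06%, or 2-fold apart, against 0.043%. An interval without 0 occurred at 2.99% of the 9307 gene ends with at least 50 insertions, and at 2.78% of those with at least 100. The ratio narrowed with the width of the window: it was 1.04 (0.29 to 1.87) within 250 bp, from 44 and 22 insertions, and 0.45 (-0.09 to 1.01) within 1000 bp, from 67 and 51. The window also covers the end of a long noncoding RNA, Gm32994, 442 bp from Arc, so the insertions may belong to either. Over the whole Arc locus the counts were 135 and 123, a log2 ratio of 0.19 (-0.17 to 0.56).

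**Figure D2:**
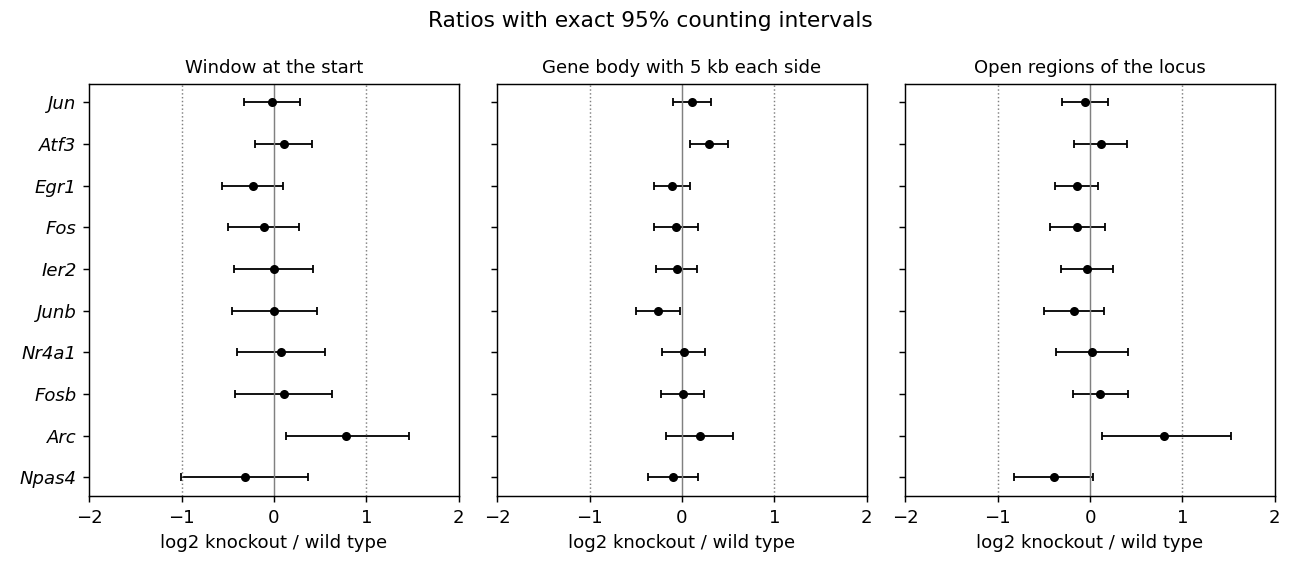
Log2 knockout over wild type for each immediate early gene at the start (left), over the gene body with 5 kb either side (middle) and in the open regions of that locus (right), with exact 95% counting intervals; dotted lines mark 2-fold. Arc lies off 0 at the start (0.78) and in its open region (0.81), and Atf3 (0.29) and Junb (-0.26) over the locus.

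Counted over the gene body with 5 kb either side, most of these loci were among the densest in the genome. Jun held 30.5 insertions per kb in knockout and 29.4 in wild type, Egr1 29.3 and 32.9, and Ier2 28.4 and 30.7. The genome mean was 2.81 and 2.80 per kb, and the median over gene loci was 4.92 and 4.87. Of all 21883 loci, Jun ranked 87 in knockout and 135 in wild type, Egr1 111 and 74, and Ier2 131 and 112. In each library 7 of the 10 loci were in the top 10%. Nr4a1 (9.81 and 10.1 per kb), Arc (10.0 and 9.12) and Npas4 (7.43 and 8.25) were not. Nr4a1 and Npas4 are the longest of the 10 gene models, at 20894 and 19087 bp. Arc, however, has only 3490 bp, and Atf3, with 13038 bp, was in the top 10%. Whether gene length plays a part was not tested.

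Over these loci the sum was again even, with 3082 knockout and 3203 wild-type insertions and a log2 ratio of 0.00 (-0.07 to 0.08). Of the 10 loci 0 were 2-fold apart, against 0.00598% of 16720 loci with at least 100 insertions. None was 1.5-fold higher, against 0.365%, and none was 1.5-fold lower, against 0.0658%. Intervals without 0 were found at 2 of the 10 loci, and at 9.72% of the 16720. Atf3 had 438 knockout and 373 wild-type insertions (0.29, 0.09 to 0.49), and Junb had 272 and 339 (-0.26, -0.49 to -0.02). Both differences lay mainly outside the open regions. The rest of the Atf3 locus held 229 and 172 insertions (0.47, 0.18 to 0.77), against 209 and 201 within its open regions (0.12, -0.17 to 0.40). The rest of the Junb locus held 122 and 163 (-0.36, -0.71 to -0.01), against 150 and 176 within its open regions (-0.17, -0.50 to 0.15). The Junb locus also takes in part of Prdx2, the peroxiredoxin gene 2097 bp away, and without that part the interval reached 0 (-0.22, -0.47 to 0.03). Jun, whose whole-locus ratio was 0.11 (-0.09 to 0.32), had 141 knockout and 106 wild-type insertions outside its open regions (0.47, 0.10 to 0.85). Outside the open regions, intervals without 0 were thus found at 3 of the 10 loci, and at 11.1% of 16022 loci with at least 100 insertions there. The ratios are scaled to insertions in open regions, and outside them the median over the 16022 loci was 0.08, and the sum over the 10 genes was 0.07 (-0.04 to 0.18).

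Around the start, the mean over the 10 genes was above that of genes in general, and most of all in the flanks. The mean of the 10 peaked in the 100 bp before the start, at 22.7 insertions per gene in knockout and 23.1 in wild type, against 10.0 and 10.6 for 14730 protein-coding genes with 1 annotated start. From 1000 to 2000 bp upstream, the 10 genes held 38.6 and 40.6 insertions per kb, against 5.53 and 5.62, a ratio of 6.99 in knockout and 7.23 in wild type. From 500 bp upstream to the start, the ratio was 2.44 and 2.42. From 1000 to 2000 bp downstream it was 4.91 and 5.27. The upstream excess came from 6 of the 10 genes. Ier2 held 92 knockout and 114 wild-type insertions in that stretch, Egr1 80 and 77, Fos 66 and 76, Junb 44 and 61, Jun 43 and 37, and Atf3 36 and 18. Fosb, Nr4a1, Npas4 and Arc held 4 to 9 in either library, close to the general mean. Downstream, Fosb alone held 113 and 116 insertions, and without it the ratio was 3.20 in knockout and 3.57 in wild type.

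**Figure D3:**
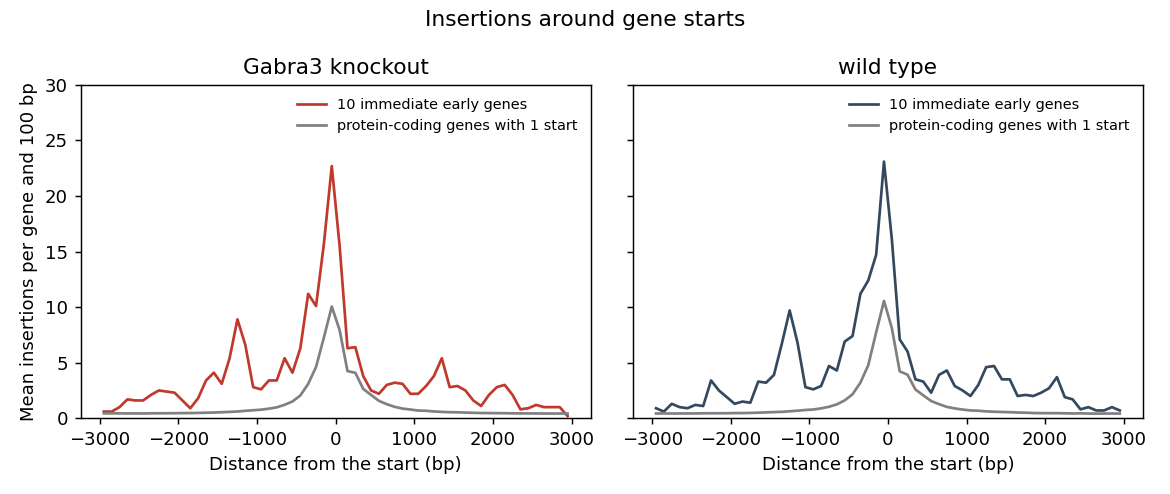
Mean insertions per gene in bins of 100 bp against the distance from the start (bp, negative upstream) in the Gabra3 knockout library (left) and the wild-type library (right), for the 10 immediate early genes (coloured) and 14730 protein-coding genes with 1 annotated start (grey). The coloured lines peak at 22.7 and 23.1, the grey ones at 10.0 and 10.6, and the coloured lines have further rises between 1000 and 2000 bp on both sides.

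The loci held 28 open regions in all, 10 at the starts, 8 further upstream and 10 downstream. Fosb, Jun, Junb and Npas4 had 4 each, against a median of 1 per gene, and 9.51% of all genes had at least 4. Of these, 1 at Junb lies within Prdx2, 1 at Fosb overlaps the long noncoding RNA Gm26802, and the upstream one at Jun lies within Junos. The median sum over both libraries was 79 insertions per region of these loci, against 29 over all 37049 open regions. Egr1 had a single region, and a broad one. It spanned 1850 bp, from 1506 bp before to 343 bp after the gene end (chromosome 18, 34859701 to 34861550), with 288 knockout and 332 wild-type insertions, a log2 ratio of -0.15 (-0.38 to 0.09). Of all open regions 99.9% were narrower and 99.7% had fewer insertions, and 5.30% were wider than 1000 bp.

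Several genes had further open regions within the locus. In Fosb and Ier2 one of them held more insertions than the region at the start in both libraries. In Fosb, a region inside the gene, 1095 to 1944 bp after the start (chromosome 7, 19308101 to 19308950), held 109 knockout and 109 wild-type insertions, while the region at the start held 55 and 50. Ier2 had a region from 999 to 1548 bp beyond its stronger end with 83 and 101, and another from 1999 to 2448 bp with 43 and 50, beside 80 and 68 at the end itself. Junb had a region just past the other end of its body, 1898 to 2347 bp from the start, with 41 and 46. Fos had one from 1340 to 1839 bp upstream with 54 and 60. The intervals of all these ratios included 0. At Npas4 a region 2880 to 3329 bp upstream summed to 62 insertions, against 56 at the start. It held more than the start in wild type (41 against 31) but fewer in knockout (21 against 25).

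At 2 of the 28 regions the interval lay off 0, against 2.99% of all 37049. Neither reached 100 insertions. One was the Arc start, with 49 knockout and 29 wild-type insertions (0.81, 0.12 to 1.53). The other lay 2880 to 3329 bp upstream of the Npas4 start (chromosome 19, 4992851 to 4993300), with 21 and 41 insertions and a log2 ratio of -0.89 (-1.74 to -0.11). The Npas4 region at the start held 25 and 31, and one 11780 to 12579 bp upstream held 26 and 29, each with an interval that included 0. Without a minimum on insertions 0 of these 28 regions were 2-fold apart, against 8.55% of all single open regions. The Arc region was the 1 that was 1.5-fold higher, against 9.77% of all, and the Npas4 region the 1 that was 1.5-fold lower, against 13.9%. All open regions had a median of 29 insertions and these 28 a median of 79. Counting error alone spreads ratios more at low counts, so these shares are not like for like.

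Split by place, the 10 regions at the starts summed to 1100 knockout and 1137 wild-type insertions, a log2 ratio of 0.01 (-0.11 to 0.13). The 10 downstream ones summed to 299 and 313, a log2 ratio of -0.01 (-0.24 to 0.23). The 8 upstream ones summed to 327 and 404, a log2 ratio of -0.25 (-0.46 to -0.03). They belong to 6 genes, and Ier2, with 126 and 151 over its pair, gave the most insertions. The Npas4 region of 21 and 41 insertions, named above for its ratio, is 1 of the 8. Upstream here means before the start used, and the upstream regions of Npas4 and Nr4a1 lie within or overlap the gene model. This split was made with the values known and has no test, and no like sum over all genes stands beside it.

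Open regions further out, nearest to 1 of the 10 genes and within 50 kb, numbered 13. Enhancers on both sides of Fos have been described in mouse cortical neurons, and Fos had 7 of the 13. The strongest lay 17990 to 18989 bp upstream (chromosome 12, 85454901 to 85455900) with 173 knockout and 171 wild-type insertions, more than at the Fos start, where the region held 107 and 119. Others lay 11861 to 12560 bp downstream, with 130 and 142, and 37240 to 37939 bp upstream, with 77 and 101. Nr4a1 had a region 19996 to 20695 bp upstream with 137 and 147, Atf3 one 40568 to 41767 bp upstream with 125 and 136, and Fosb one 9706 to 10405 bp upstream with 89 and 87. In Nr4a1 and Fosb, as in Fos, a distant region thus held more insertions than the region at the start (74 and 71 in Nr4a1, 55 and 50 in Fosb). Jun, Junb, Npas4 and Ier2 had none of the 13. Arc had a weak one 6631 to 6880 bp beyond its stronger end, with 6 and 6 insertions; an activity-responsive enhancer upstream of Arc is known in mouse, and whether this region is part of it was not tested.

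The 13 outer regions summed to 812 knockout and 872 wild-type insertions, a log2 ratio of -0.04 (-0.18 to 0.10), and the interval of each of them included 0. The nearest gene is a landmark and not a shown target.

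**Figure D4:**
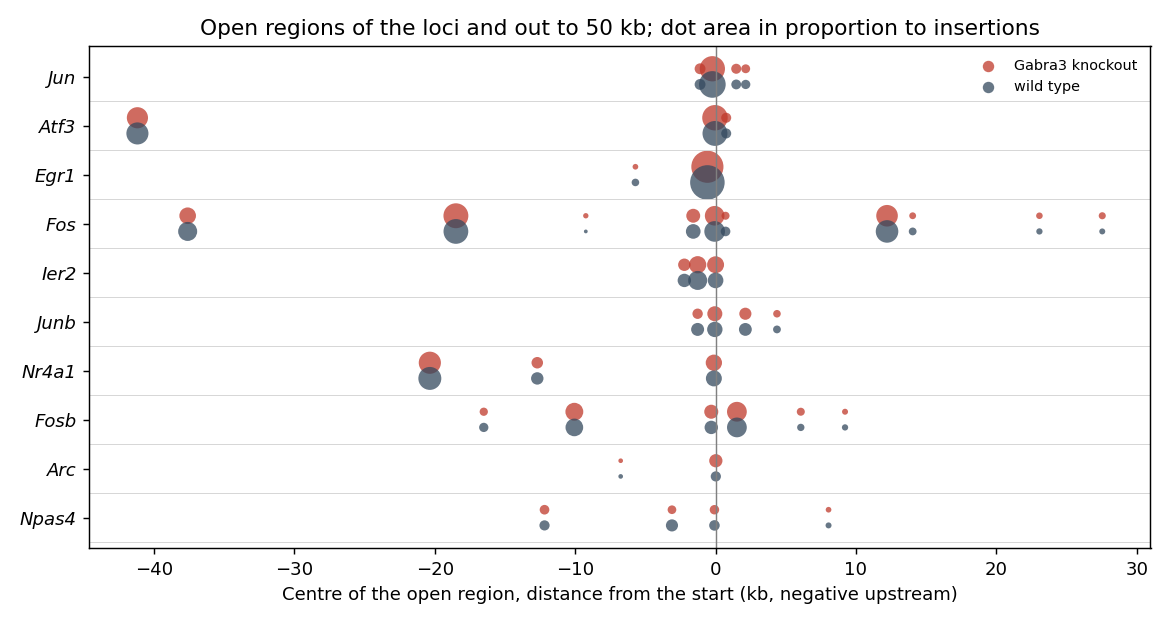
Open regions of the 10 loci and out to 50 kb, 1 row per gene, by the distance of their centre from the start (kb, negative upstream), with the Gabra3 knockout library (red) above the wild-type library (dark blue) and the dot area in proportion to insertions. Egr1 has 1 broad region of 288 and 332 insertions, Fos has regions on both sides, and paired dots differ most in proportion, among regions of 60 or more insertions, upstream of Npas4 (21 and 41) and at Arc (49 and 29).

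Other genes of the activity response showed as little difference at their stronger ends. Of 40 other early-response genes, 21 had at least 100 insertions, 0 of them were 1.5-fold apart in either direction, and their median log2 ratio was 0.09, against 0.02 over all genes with that minimum. Over the 7506 gene ends with that minimum, 0.52% were 1.5-fold higher and 0.226% lower. A count of 0 therefore sets neither this list nor those below apart from the background. Klf10, a zinc finger gene induced by TGF-beta, had 255 knockout and 245 wild-type insertions, and Homer1, a scaffold gene of excitatory synapses, had 237 and 225. Nr4a2, a relative of Nr4a1, had the ratio furthest from 0 at 0.49 (-0.10 to 1.09), from 58 and 43, and Ier5 had 92 and 81 (0.24, -0.20 to 0.69).

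Of 21 genes that feed back on the response, 13 were measured, 0 were 1.5-fold apart and the median was 0.02. Btg1, an antiproliferative gene, had 208 and 247 insertions, and Gadd45a, a growth arrest gene, had 167 and 192. Gadd45b, its relative, had 63 knockout and 93 wild-type insertions (-0.50, -0.99 to -0.03), and Dusp4, a phosphatase gene acting on MAP kinases, had 47 and 65 (-0.40, -0.98 to 0.15). An interval without 0, as at Gadd45b, occurred at 2.78% of all gene ends with at least 100 insertions.

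Upstream of the response, 21 of 33 genes were measured, 0 were 1.5-fold apart and the median was -0.03. Rps6ka5, the gene of the kinase MSK1 that phosphorylates CREB, had 314 and 344 insertions, and Ppp3ca, a catalytic subunit of the calcium-dependent phosphatase calcineurin, had 246 and 233. Mapk3, the ERK1 gene, had 44 and 65 (-0.50, -1.09 to 0.07), and Elk4, a partner of SRF, had 131 and 113 (0.27, -0.10 to 0.65).

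Late-response and secreted activity genes had few insertions at their gene ends in both libraries. Their medians were 6 knockout and 7 wild-type insertions per gene end. An open region was there for 7 of 20, against 9 of the 10 immediate early genes and 50.6% of all genes. The same count was 32 of 40 for other early-response genes and 20 of 21 for feedback genes. For upstream genes it was 23 of 33 and for housekeeping genes 13 of 15, so an open gene end is not particular to the immediate early genes. Over the gene with 5 kb either side, 13 of the 20 late-response genes had an open region, while 31.3% of all genes had none. Nptx2, a pentraxin gene of excitatory synapses, was the single gene with at least 100, at 74 and 71 (0.12, -0.37 to 0.61). Of 15 housekeeping genes, 11 were measured, 0 were 1.5-fold apart and the median was -0.04, with Tfrc at 176 and 161, Polr2a at 116 and 142, Pgk1 at 79 and 102 and Hprt at 59 and 50.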

How the data were processed

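Per the submitters' processing notes, reads were handled with Trimmomatic 0.33, BWA and bedtools 2.23.0 on GRCm38 (mm10). What each tool did, the BWA version and any removal of duplicates are not stated there. Each deposited line is 1 aligned read of 75 bp, and the score column as deposited is mapping quality. The authors' read coordinates were used with no normalization, from 9038110 knockout and 9170838 wild-type reads.

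Reads with mapping quality of at least 10 gave 5-prime ends, 1 per position and strand, moved to the Tn5 site (4 bp on plus reads, -5 bp on minus reads). Open regions were windows of 200 bp in steps of 50 bp on the summed libraries where the count had a Poisson p under 1e-05, given the genome mean or that of the 10000 bp around, whichever was larger, merged within 150 bp. Log2 ratios use a pseudocount of 0.5 and intervals are Clopper-Pearson; intervals of single counts are exact Poisson. A gene counted as apart at 2-fold, or 1.5-fold, with at least 100 insertions summed. Gene positions and promoter sequences came from RefSeq tables of GRCm38.p6. The functions were tested on simulated data (Python 3.11.15, numpy 2.4.6, scipy 1.17.1).

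All 10 genes are named; from each other list the rule named the 2 genes with most insertions and the 2 with the ratio furthest from 0 among those with at least 100. The members and lists were chosen with earlier results of these data known. Srf stands in 2 lists. Other single regions, and the outer limit of 50 kb, were chosen after their values were seen.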

Additional observations from a re-analysis of the deposited data

How the results depend on the processing

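The sums over the 10 genes moved by less than their counting intervals under every setting tried. These were 2 other scalings, no minimum or a minimum of 30 on mapping quality, all reads kept, no Tn5 shift, a pseudocount of 1, other windows and flanks, the annotated start, loci without parts of other genes and a stricter region threshold. The sum at the stronger gene end ranged from -0.05 to 0.05, that over the loci from -0.06 to 0.01 and that in open regions from -0.11 to -0.04. Scaling to all autosomal insertions lowered every log2 ratio by 0.06, and then the interval of the open-region sum lay below 0 (-0.11, -0.20 to -0.01), while the trimmed mean of M values gave -0.07 (-0.16 to 0.03). Single genes and sums were set against the interval of the main setting, which at gene ends was the stronger end. Within it stayed 110 of 110 values at gene ends, 109 of 110 over loci and 88 of 88 in open regions. The exception was the Arc locus without the parts of Gm32994, which takes out the Arc start as well, with 44 knockout and 58 wild-type insertions (-0.34, -0.94 to 0.25). At the stronger end of Npas4 that interval was wide, from 7 and 3 insertions (1.16, -0.85 to 3.86). It took in the ratio of -0.31 at the annotated start, although the sign differs. In the settings counted at that end, Npas4 lay above the interval of its annotated start (-1.003 to 0.37). Arc at the start stayed above 0 in all 10 settings (0.45 to 1.04) and its interval reached 0 in 1, the window of 1000 bp. The Atf3 locus stayed above 0 in all 10 (0.11 to 0.30), and its interval reached 0 with the gene body alone. The Junb locus stayed below 0 in all 10 (-0.35 to -0.12), and its interval reached 0 in 3. The count of 0 genes 2-fold apart stayed 0 at 1.5-fold, with a minimum of 50 insertions and with the other scaling. No paired analysis was possible because each genotype has 1 library and no test was made. Depth limits the weakest genes most: the Npas4 start, with 34 and 44 insertions, has an interval from -1.003 to 0.37.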
